A study of Mus musculus with 8 samples.

Results

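The genes described here encode secreted proteins of the acute phase response and of antimicrobial defence, measured in cultured mouse peritoneal macrophages. They were chosen by symbol, as the lines of the deposited expression table named Saa3, Lcn2, Hp, Slpi, Wfdc17, Wfdc21, S100a8, S100a9, Lyz1 and Lyz2. All 10 symbols were found among 24339 genes. The symbols were picked by function with earlier results of these data in view, among them the high level of Saa3, so the levels below are a description of the set and its tests are not independent evidence.

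The macrophages were taken from C57BL/6 mice, either wild type or lacking the α7 nicotinic acetylcholine receptor (α7nAChR-/-, the product of Chrna7), called the knockout here. Plated cells received vehicle or nicotine (10 µM, 15 min) and then vehicle or lipopolysaccharide (LPS, 100 ng/ml, 4 h), LPS being a bacterial surface molecule that Toll-like receptor 4 senses. The labels gave 4 groups per genotype: vehicle and then vehicle, nicotine and then vehicle, vehicle and then LPS, and nicotine and then LPS. Each of the 8 groups was 1 library, and the labels gave no age or sex and did not say whether animals were pooled. Genotype and cell preparation therefore cannot be told apart. With no replicate, each p-value rests on departures of single libraries from the fitted model, which may be technical. In the fit without interaction terms, a response to LPS that differs with nicotine counts among these departures and widens the SE. Values are FPKM (fragments scaled by the length of the transcript and the size of the library). Differences are given as log2(FPKM + 1), a scale that compresses the change of low genes.

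Acute phase proteins are secreted in large amounts during inflammation, most of them by the liver and some by macrophages, usually under the control of interleukin 6, interleukin 1 and the transcription factors C/EBP, NF-kB and STAT3. Saa3 is a serum amyloid A made largely outside the liver, Hp (haptoglobin) captures free haemoglobin, and Lcn2 (lipocalin 2) binds the iron carriers that bacteria release. Slpi, Wfdc17 and Wfdc21 are small proteins with a WAP domain, and Slpi inhibits serine proteases of neutrophils. S100a8 and S100a9 form calprotectin, which withholds metal ions from microbes, and Lyz1 and Lyz2 are lysozymes, which cut the bacterial cell wall.

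Pairs of the genes lie near each other on GRCm38 in the GENCODE M21 annotation. Lyz1 (chr10:117287797-117292868) and Lyz2 (chr10:117277331-117282321) lie 5.48 kb apart on the minus strand, S100a8 (chr3:90668978-90670035) and S100a9 (chr3:90692632-90695721) 22.6 kb apart on opposite strands, and Wfdc17 (chr11:83703991-83706268) and Wfdc21 (chr11:83746940-83752642) 40.7 kb apart on the plus strand. The others have none of the 10 genes near them, Saa3 at chr7:46711998-46715700, Lcn2 at chr2:32384633-32388252, Slpi at chr2:164354070-164389095 and Hp at chr8:109575128-109579172, all on the minus strand. Neighbours outside the set were not looked at. All 10 are annotated as protein coding, and the FPKM values are per gene, over all its exons.

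The stretches before the RefSeq starts of Saa3, Slpi, Lyz1 and Lyz2 are shown. Saa3 and Slpi are abundant genes whose levels differed between treatments, and the lysozyme genes varied least in FPKM. The stretches are RefSeq promoters on GRCm38.p6, minus strand, written 5′ to 3′ and stopped where the annotation places an exon of the gene. Capitals mark matches to TTNNGNAA, a C/EBP motif, on either strand. The printed stretches are chr7:46715701-46715926 for Saa3, chr2:164356508-164356757 for Slpi, chr10:117292869-117293118 for Lyz1 and chr10:117282322-117282522 for Lyz2. The Slpi stretch lies inside the GENCODE span given above for that gene, downstream of its outermost annotated start.
Saa3: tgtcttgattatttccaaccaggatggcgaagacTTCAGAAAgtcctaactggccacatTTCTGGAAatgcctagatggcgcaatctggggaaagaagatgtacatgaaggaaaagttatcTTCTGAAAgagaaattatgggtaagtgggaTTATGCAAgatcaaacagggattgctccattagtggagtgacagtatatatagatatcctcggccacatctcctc
Slpi: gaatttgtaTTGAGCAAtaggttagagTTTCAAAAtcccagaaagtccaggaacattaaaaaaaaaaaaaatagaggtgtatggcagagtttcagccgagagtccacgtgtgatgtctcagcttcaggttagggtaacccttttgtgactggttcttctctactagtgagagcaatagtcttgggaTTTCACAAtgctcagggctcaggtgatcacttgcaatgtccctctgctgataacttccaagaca
Lyz1: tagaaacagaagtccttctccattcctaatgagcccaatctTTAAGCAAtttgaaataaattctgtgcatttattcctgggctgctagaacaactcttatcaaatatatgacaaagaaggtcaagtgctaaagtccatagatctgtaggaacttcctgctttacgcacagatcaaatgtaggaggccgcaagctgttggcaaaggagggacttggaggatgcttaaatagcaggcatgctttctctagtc
Lyz2: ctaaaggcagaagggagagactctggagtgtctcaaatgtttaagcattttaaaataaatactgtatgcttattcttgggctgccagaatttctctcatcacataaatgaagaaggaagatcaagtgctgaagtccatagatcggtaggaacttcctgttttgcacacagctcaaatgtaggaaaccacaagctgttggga
Saa3 held 4 matches, Slpi 3 and Lyz1 1, and the printed stretch of Lyz2 held none. RefSeq promoters, from 250 bases before to 50 after the start, were matched for 8 of the 10 genes (not Hp or Wfdc21). In that window, which was not cut at exons, all 8 held the C/EBP motif, against 40.7% of 32851 promoters. The match of Lyz2 runs into an annotated exon, and the Lcn2 window has 0 bases before an annotated exon, so its match is not in upstream sequence by that annotation. None of the 8 held GGANTTTCC (kappa B, 1.25% of promoters), TTCNNNGAA (STAT, 8.30%), TGANTCA (AP-1, 7.81%) or TGATGNAA (ATF4, 3.97%) on either strand. These are matches of letters and not measured binding sites. The 250 bases before the starts of Lyz1 and Lyz2 were identical at 80.6% of 248 aligned bases, and their transcripts at 96.0% of 1262 aligned bases. Of all 50-base words of the Lyz1 transcript, 16.1% also occur in Lyz2, so the division of reads between both lysozyme genes is uncertain.

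The cells carried macrophage markers, with Adgre1 at 289 to 421 FPKM in every library. Chrna7 was listed at 0 in all 8 libraries, wild type included, so no value of the targeted gene checks the labels of genotype. Some low values may be failed estimates, as Gapdh was listed at 1.34 to 8.90 FPKM against 3006 to 6998 FPKM for Eef1a1. The summed FPKM differed between libraries, from 413052 to 854016, and was higher in the 4 libraries given LPS than in the other 4. Depth in counts is unknown, so no interval of counting error is given. In bulk RNA, fewer cells of a type and less RNA per cell cannot be told apart.

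The mean level over the 8 libraries ran from 0.203 FPKM for S100a9 to 28393 FPKM for Saa3, and a few of the genes made up a large part of each library. Together they took 10.97% of the summed FPKM in wild type cells given vehicle, 7.01% in those given nicotine, 10.1% in those given LPS and 6.10% in those given both. In the knockout they took 15.8%, 12.01%, 12.3% and 8.35% in the same order. Saa3 and Lyz2 supplied most of it. Saa3 took 1.84%, 1.55%, 5.79% and 1.17% in the wild type libraries and 7.33%, 6.06%, 7.79% and 4.28% in the knockout libraries.

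**Figure D1:**
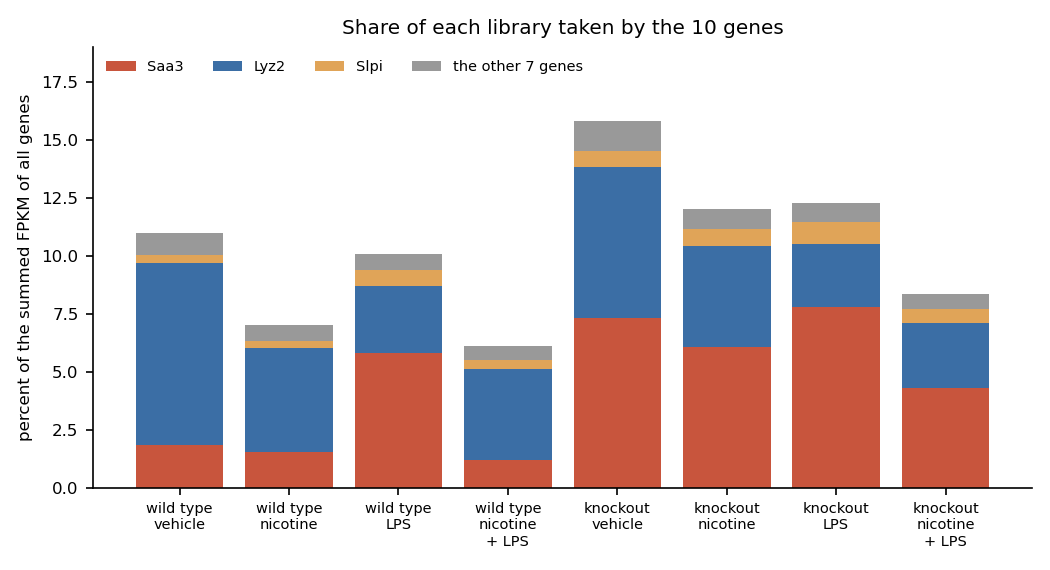
Percent of the summed FPKM of all genes (vertical axis) taken by Saa3, Lyz2, Slpi and the other 7 genes together, stacked for each of the 8 libraries (horizontal axis, 1 library per bar). The whole bar runs from 6.10% to 15.8%, and the Saa3 segment from 1.17% in wild type with nicotine and LPS to 7.79% in the knockout with LPS.

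Saa3 stood at 7608 FPKM in wild type cells with vehicle, 8217 after nicotine, 46089 after LPS and 7702 after both. In the knockout it stood at 32418, 31734, 66561 and 26813 FPKM in the same order. It ranked among the 6 highest genes of every library and highest in 5 of the 8. The wild type LPS library was the one wild type library within the range of the knockout, whose lowest value was 26813 FPKM. Measured against Lyz2, Saa3 was 0.234, 0.347, 2.002 and 0.298 times as high in the wild type libraries and 1.13, 1.39, 2.89 and 1.53 times as high in the knockout libraries.

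Lcn2 was nearly silent in wild type cells unless LPS was given alone. It was listed at 0.361 FPKM in the vehicle library, 0 after nicotine, 59.2 after LPS and 0.130 after nicotine and LPS. The knockout libraries held 24.1, 31.0, 246 and 36.5 FPKM. The wild type LPS library lay above 3 of the 4 knockout libraries, so the genotypes overlapped through that library.

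Hp varied in another way. In wild type it was 308 FPKM (vehicle), 208 (nicotine), 290 (LPS) and 145 (both agents), and in the knockout 1190, 548, 1008 and 369 FPKM in that order. All 4 knockout libraries were above all 4 wild type libraries. The share of all genes that separate in this way was not counted, so the separation is only described. Within each genotype both nicotine libraries were below both libraries without nicotine. The share of all genes that do so was not counted either, and 22.2% of all tested genes were called lower with nicotine.

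Among the WAP domain genes, Slpi and Wfdc17 were abundant in every library and Wfdc21 was not. Slpi stood at 1375, 1604, 5508 and 2495 FPKM in wild type with vehicle, nicotine, LPS and both, and at 3089, 3917, 8185 and 4039 FPKM in the knockout. The LPS library was the highest of each genotype, and the genotypes overlapped. Wfdc17 stood at 1417, 1311, 3111 and 1561 FPKM in wild type and at 1538, 1641, 3007 and 1417 FPKM in the knockout. Its libraries with LPS alone were about alike in both genotypes and above the other 6. Wfdc21 was listed in wild type at 0 FPKM in the vehicle and the nicotine library, at 4.34 after LPS and at 0.369 after both agents, and at 20.2, 22.3, 61.7 and 24.8 FPKM in the knockout. Its genotypes did not overlap, although its neighbour Wfdc17 overlapped throughout. As for Hp, the share of all genes without overlap was not counted.

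The calprotectin genes stood far apart. S100a8 was 34.1, 22.8, 107 and 45.3 FPKM in wild type with vehicle, nicotine, LPS and both, and 104, 57.8, 162 and 86.9 FPKM in the knockout. The wild type LPS library exceeded 3 of the knockout libraries. S100a9 was listed at 0, 0, 0.315 and 0 FPKM in wild type and at 0.219, 0.191, 0.635 and 0.268 FPKM in the knockout. With a mean of 0.203 FPKM it was under the minimum of 1 FPKM for the fits, so 9 of the 10 genes were tested, and no direction was read from it.

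In FPKM the lysozyme genes varied least. As a share of the summed FPKM they did not, with Lyz2 at 2.70% to 7.86% and Lyz1 at 0.233% to 0.652%. Wfdc17 took 0.226% to 0.391%. Lyz2 stood at 32448, 23697, 23023 and 25861 FPKM in wild type and at 28713, 22831, 23020 and 17576 FPKM in the knockout. Lyz1 stood at 2129, 2008, 1850 and 2248 FPKM in wild type and at 2885, 2144, 2640 and 2013 FPKM in the knockout. Lyz1 supplied 6.16% to 10.3% of both together, a share that depends on how shared reads were divided. For both genes the genotypes, the libraries with and without LPS and the libraries with and without nicotine overlapped.

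**Figure D2:**
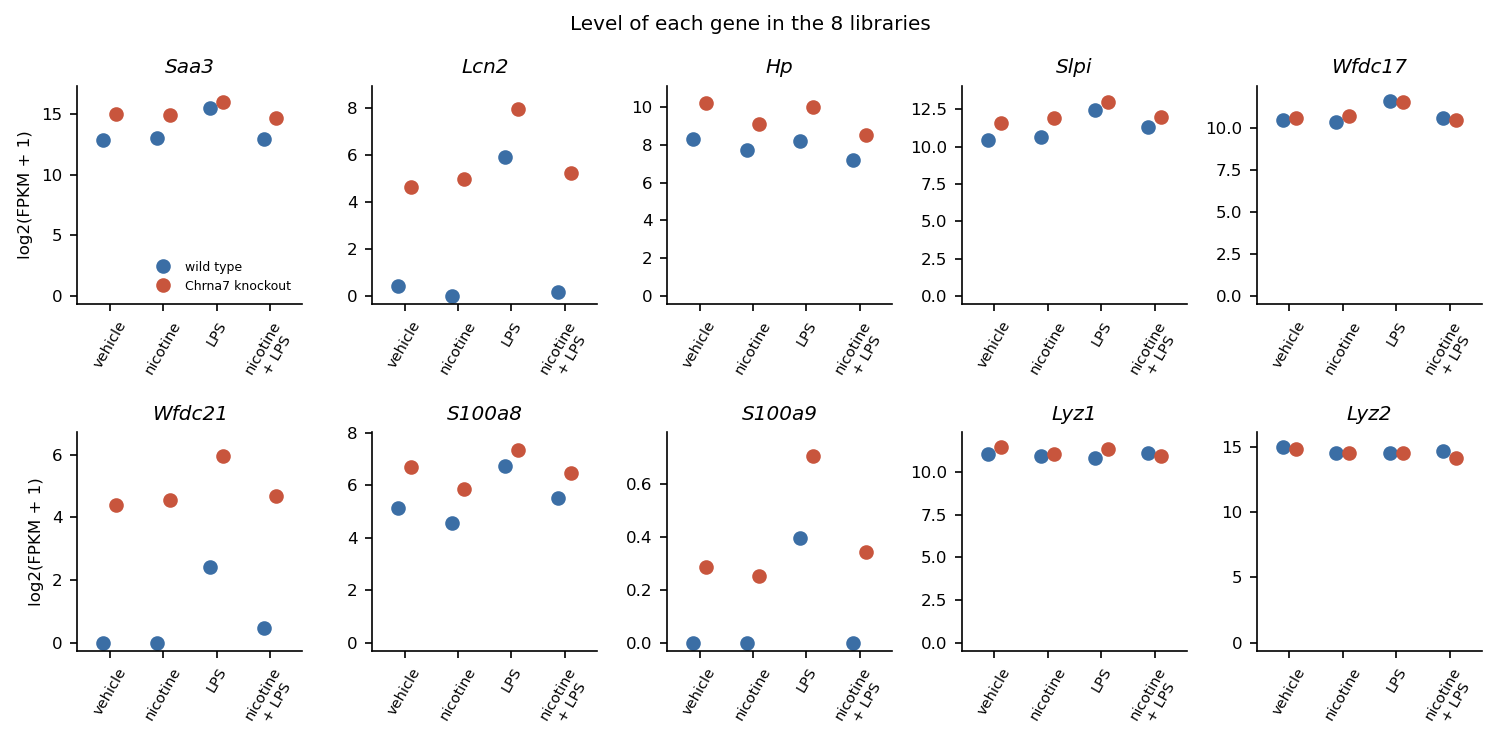
Level of each of the 10 genes as log2(FPKM + 1) (vertical axis, a separate range per gene) by treatment (horizontal axis), with 1 point per library, wild type in blue and knockout in red. All knockout points lie above all wild type points for Hp and Wfdc21 (share of all genes not counted). In FPKM, Lyz1 and Lyz2 are nearly level, and every S100a9 value is under 1 FPKM.

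The question of the LPS comparison was which of these genes rose when macrophages met LPS. Over all 8 libraries, in an additive model with n = 4 libraries in each arm that differ in the other factors, S100a8 and Slpi rose. With LPS the level of S100a8 was 1.93-fold higher (log2 change 0.95 ± 0.20, SE, adjusted p = 0.0186 in limma) and Slpi 2.03-fold higher (1.02 ± 0.30, adjusted p = 0.0448). These were 2 of the 9 genes tested, against 15.8% of all 10447 tested genes called higher (adjusted p under 0.05) and 11.3% called lower. Lcn2 (2.29 ± 0.93, adjusted p = 0.103), Wfdc21 (1.14 ± 0.37, adjusted p = 0.0592), Saa3 (0.83 ± 0.45, adjusted p = 0.194) and Wfdc17 (0.53 ± 0.23, adjusted p = 0.113) did not pass the test. Neither did Hp (-0.35 ± 0.16, adjusted p = 0.135), Lyz2 (-0.27 ± 0.12, adjusted p = 0.119) or Lyz1 (-0.06 ± 0.14, adjusted p = 0.735). The median log2 change of the 9 was 0.83, beside 0.02 over all tested genes. Scaling the libraries to equal FPKM totals moved the median of all genes to -0.51, ended both calls (adjusted p 0.158 for S100a8 and 0.167 for Slpi) and called Hp, Lyz1 and Lyz2 lower. Relative to that median, Slpi stood 0.91 higher and S100a8 0.85 higher. With quantile scaling Slpi turned to -0.04 (adjusted p = 0.880), 0.04 above the median of all genes, and S100a8 was 0.43 (adjusted p = 0.1799). Both calls also ended with LPS as the only term of the model (adjusted p 0.303 for S100a8 and 0.210 for Slpi), and that of Slpi ended with no filter on low values (0.118) and with matched pairs as a block (0.0835). The call of S100a8 ended without the wild type vehicle library (adjusted p = 0.0508) or the knockout vehicle library (0.0559), and that of Slpi without any 1 library other than those of the knockout with nicotine and with nicotine and LPS (0.0602 to 0.143 without each of the other 6). Wfdc21 was called higher without the knockout nicotine library (0.0417), and Lyz2 lower without the wild type nicotine and LPS library (0.0287).

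Single pairs of libraries, which allow no test, show where the rise lay. Without nicotine, LPS was followed by a level 6.06-fold higher for Saa3, 4.00-fold for Slpi, 3.08-fold for S100a8 and 2.19-fold for Wfdc17 in wild type cells, as ratios of FPKM + 1. In the knockout the same ratios were 2.05 for Saa3, 2.65 for Slpi, 1.56 for S100a8 and 1.95 for Wfdc17. Lcn2 went from 24.1 to 246 FPKM in the knockout, a 9.83-fold ratio. For wild type Lcn2 and Wfdc21 the vehicle library was at or near 0, and no fold is given. Among genes that reached 5 FPKM in 1 or both libraries of a pair, 5 of 8 in wild type and 4 of 9 in the knockout were at least 2-fold higher, against 23.4% and 21.7% of all genes compared. None was 2-fold lower, beside 15.8% and 11.8% of all genes. Lcn2 in wild type reached 5 FPKM only in the LPS library, where a ratio that passes is bound to be high. With 5 FPKM required in both libraries, a rule chosen after seeing the data, 4 of 7 and 4 of 9 genes were higher. Over all genes these were 1401 of 6177 and 1317 of 6314.

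After nicotine the LPS ratios were near 1 for most of the genes. In wild type, nicotine and LPS against nicotine alone gave 0.937 for Saa3, 1.55 for Slpi, 1.19 for Wfdc17 and 1.95 for S100a8. In the knockout the ratios were 0.845 for Saa3, 1.17 for Lcn2, 1.03 for Slpi, 0.863 for Wfdc17, 1.11 for Wfdc21 and 1.49 for S100a8. None of 7 genes in wild type and none of 9 in the knockout reached 2-fold in either direction, beside 7.13% and 9.27% of all genes higher and 3.98% and 3.97% lower. Summed over the 4 LPS pairs, 9 of 33 ratios were at least 2-fold higher and 0 lower, beside 15.7% and 9.14% over all genes. Lcn2 in wild type reached 5 FPKM only in the LPS library, and with 5 FPKM required in both libraries, a rule chosen after seeing the data, 8 of 32 were higher and 0 lower, beside 13.7% and 4.72%. The ratios without and after nicotine share no library.

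**Figure D3:**
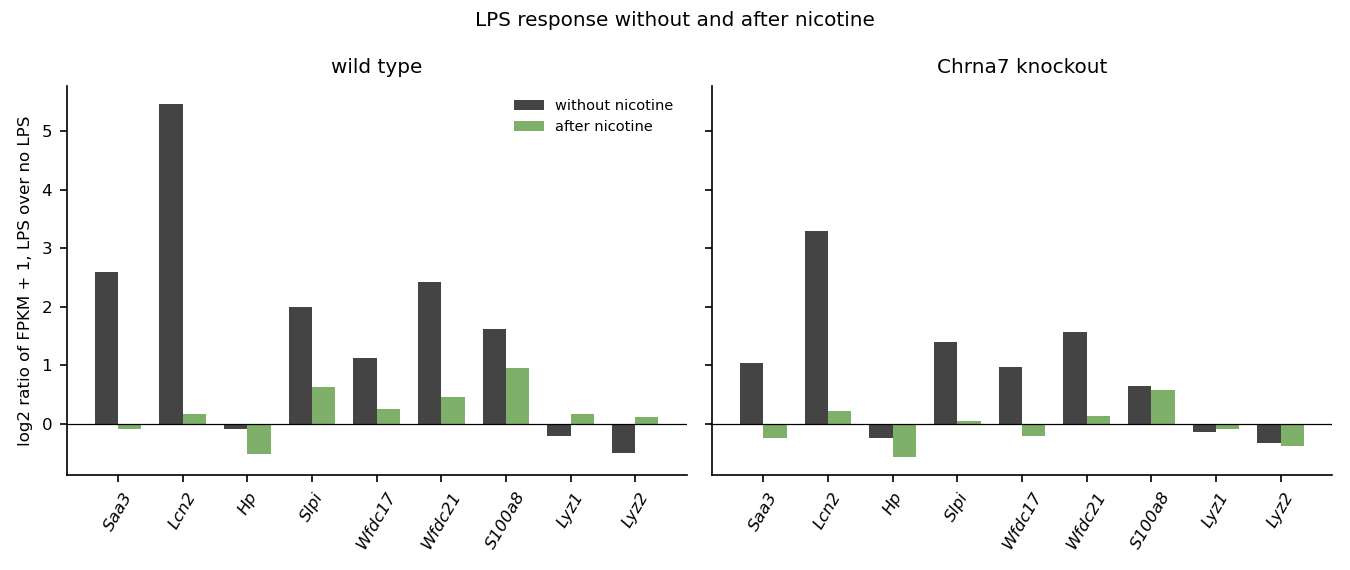
Log2 ratio of FPKM + 1 between the libraries with and without LPS (vertical axis) for 9 genes (horizontal axis), without nicotine (dark bars) and after nicotine (green bars), in wild type (left) and knockout (right) cells, with 1 pair of libraries per bar. The dark bars of Saa3, Lcn2, Slpi, Wfdc17 and Wfdc21 are taller than the green ones in both genotypes.

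Whether the LPS response differed with nicotine was tested as an interaction over all 8 libraries. Lcn2, Saa3, Wfdc21, Slpi and Wfdc17 had a smaller LPS response after nicotine, 5 of the 9 genes tested, against 18.0% of all tested genes with a lower response and 12.8% with a higher one. The difference of the LPS effects was -4.18 ± 0.56 for Lcn2 (log2, SE, limma adjusted p = 0.0186), -1.99 ± 0.40 for Saa3 (adjusted p = 0.0318) and -1.69 ± 0.23 for Wfdc21 (adjusted p = 0.0183). It was -1.36 ± 0.20 for Slpi (adjusted p = 0.0203) and -1.03 ± 0.21 for Wfdc17 (adjusted p = 0.0316). S100a8 (-0.36 ± 0.23, adjusted p = 0.278), Hp (-0.38 ± 0.19, adjusted p = 0.184), Lyz1 (0.20 ± 0.21, adjusted p = 0.495) and Lyz2 (0.28 ± 0.27, adjusted p = 0.459) did not pass. The fit has 1 residual degree of freedom, so its spread comes almost wholly from the other genes, and its 5 calls ended with no filter on low values (adjusted p 0.0544 for Lcn2 and Wfdc21, 0.118 to 0.292 for the others). With equal FPKM totals the median of all genes moved from -0.11 to 0.46, and the calls of Saa3 (-1.33, adjusted p = 0.0682) and Wfdc17 (-0.37, adjusted p = 0.186) ended, while Lyz1 (0.86, adjusted p = 0.0347) and Lyz2 (0.94, adjusted p = 0.0470) were called higher. With quantile scaling Slpi turned to 0.09 (adjusted p = 0.693). In a model with this interaction alone, chosen after seeing the data, each of the 5 calls ended without the wild type vehicle or without the knockout nicotine library (adjusted p 0.0612 to 0.124). In that model 4 of the 5 ended without either library given both agents, Saa3 and Lcn2 also without the wild type nicotine library, and Lcn2 without the knockout vehicle library.

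Nicotine was compared over the same libraries. Hp and S100a8 fell, 2 of the 9 genes tested, against 22.2% of all tested genes called lower and 24.1% called higher, so their share was that of the table. Hp was 2.05-fold lower with nicotine (log2 change -1.03 ± 0.16, SE, limma adjusted p = 0.00311) and S100a8 1.84-fold lower (-0.88 ± 0.20, adjusted p = 0.0118). The estimates of the other 7 were also below 0 and did not pass. They ran from -2.14 ± 0.93 for Lcn2 (limma adjusted p = 0.101) and -0.95 ± 0.45 for Saa3 (adjusted p = 0.125) to -0.16 ± 0.14 for Lyz1 (adjusted p = 0.392). The median of the 9 was -0.78, beside -0.04 over all tested genes, and the share of all genes below 0 was not counted. With quantile scaling Lyz2 turned to 0.09 and Lyz1 was -0.03. Saa3 was called lower without the wild type vehicle library (adjusted p = 0.0478), Lcn2 (0.0484) and Wfdc17 (0.0434) without the knockout nicotine library, and Lyz2 without the wild type LPS (0.0412) or nicotine and LPS library (0.0203). Wfdc17 was also called lower with equal FPKM totals over the other genes (-0.56, adjusted p = 0.0385). The calls of Hp and S100a8 held without each library in turn and under the scalings tried, and ended with nicotine as the only term of the model (adjusted p 0.239 and 0.266).

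Summed over the 4 pairs of libraries that differ in nicotine, 11 of 33 ratios were at least 2-fold lower and 0 higher, beside 15.8% lower and 17.2% higher over all genes. With 5 FPKM required in both libraries these were 10 of 32 lower and 0 higher, beside 11.1% and 15.0%. Without LPS the 1 such ratio was that of Hp in the knockout, 2.17-fold lower. Under LPS, 4 of 8 genes in wild type and 6 of 9 in the knockout were at least 2-fold lower. The shares of all genes were 19.5% and 18.2%. Lcn2 in wild type was compared only through its level with LPS alone, so its ratio was bound to be low. With 5 FPKM required in both libraries, 3 of 7 and 6 of 9 genes were lower, beside 919 of 6073 and 964 of 6240 of all genes. Saa3 was 5.98-fold lower with nicotine and LPS than with LPS alone in wild type and 2.48-fold lower in the knockout. Slpi was 2.21-fold and 2.03-fold lower, Wfdc17 1.99-fold and 2.12-fold lower, and Hp 1.99-fold and 2.73-fold lower, in the same order. Monocyte markers moved with nicotine too: 4 of 6 were called lower, and their summed level was 173 to 597 FPKM without and 127 to 344 FPKM with nicotine. Mast cell markers moved the other way, with 5 of 6 called higher and sums of 157 to 281 FPKM without and 299 to 751 FPKM with nicotine. Their part in these results was not tested.

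The genotype comparison asked whether cells without the receptor differed. Wfdc21 and Hp were higher in the knockout, 2 of the 9 genes tested, against 0.689% of all tested genes called higher and 0.412% called lower. Hp was 3.07-fold higher (log2 change 1.62 ± 0.16, SE, limma adjusted p = 0.0117). Wfdc21 had a log2 change of 4.18 ± 0.37 (adjusted p = 0.00709), a size that depends on the 1 added to each FPKM, since 2 wild type libraries were listed at 0. S100a8 (1.10 ± 0.20, adjusted p = 0.0671), Lcn2 (4.07 ± 0.93, adjusted p = 0.127), Saa3 (1.59 ± 0.45, adjusted p = 0.212) and Slpi (0.93 ± 0.30, adjusted p = 0.262) did not pass. Lyz1 (0.22 ± 0.14, adjusted p = 0.605), Wfdc17 (0.06 ± 0.23, adjusted p = 0.956) and Lyz2 (-0.20 ± 0.12, adjusted p = 0.567) were close to 0. The median of the 9 was 1.10, beside -0.01 over all tested genes. With the 4 matched pairs of libraries as a block, so that each treatment has a level of its own, Saa3 (adjusted p = 0.0189), Lcn2 (0.00783), Slpi (0.0164) and S100a8 (0.0164) were called higher as well, 6 of the 9, while the calls over all genes went from 72 to 497 higher and from 43 to 301 lower. The call of Wfdc21 ended without the knockout LPS library (adjusted p = 0.05004). That of Hp ended without any 1 of 4 libraries (wild type nicotine and LPS 0.0646, knockout vehicle 0.0757, knockout nicotine 0.0717, knockout LPS 0.0546), and without the wild type LPS library Saa3 (0.0268), Lcn2 (0.0216) and S100a8 (0.0316) were called as well.

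In single pairs the knockout was 4.26-fold higher for Saa3 in the vehicle pair, 3.86-fold in the nicotine pair, 1.44-fold in the LPS pair and 3.48-fold in the pair given both. For Hp the ratios were 3.85, 2.63, 3.47 and 2.54, and for Slpi 2.25, 2.44, 1.49 and 1.62. S100a8 gave 2.99, 2.47, 1.51 and 1.90 in the same order. Wfdc17 stayed between 0.908 and 1.25 and Lyz2 between 0.680 and 1.00. At least 2-fold higher in the knockout were 6 of 9 genes in the vehicle pair, 6 of 9 in the nicotine pair, 3 of 9 in the LPS pair and 4 of 9 in the pair given both, beside 4.32%, 2.71%, 4.98% and 4.67% of all genes. None was 2-fold lower, beside 2.68%, 2.44%, 2.13% and 2.43% of all genes. Summed over the 4 pairs, 19 of 36 ratios were higher and 0 lower, beside 4.17% and 2.42%. Of the 19, 7 came from pairs in which Wfdc21 (all 4) or Lcn2 (all but the LPS pair) reached 5 FPKM only in the knockout, where a ratio that passes is bound to be high, so the count gives no support. With 5 FPKM required in both libraries, 12 of 29 were higher and 0 lower, beside 3.0% and 1.71%. For Saa3, Lcn2, Slpi, Wfdc21 and S100a8 the LPS pair had the smallest ratio of the 4. The share of all genes with this order was not counted, and the LPS by genotype interaction was called for none of these genes.

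**Figure D4:**
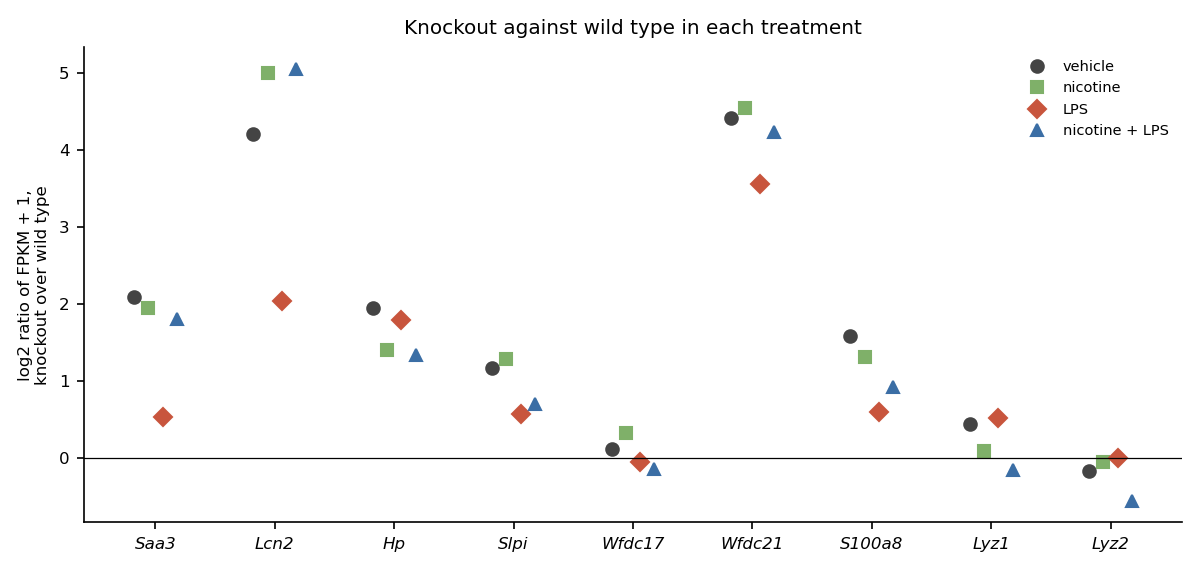
Log2 ratio of FPKM + 1, knockout over wild type (vertical axis), for 9 genes (horizontal axis), with 1 point per treatment and 1 pair of libraries per point. Hp lies between 2.54-fold and 3.85-fold in all 4 treatments, while the Saa3 point for LPS alone (1.44-fold) lies apart from the other 3.

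Whether the LPS or nicotine effect differed between genotypes could not be shown for any of these genes. The LPS by genotype and the nicotine by genotype interactions gave 0 calls in limma among the 9 genes, beside 0% of all tested genes. At an unadjusted p under 0.05 they gave 2 and 1 of the 9, and 955 and 634 of all genes. The LPS by genotype estimates for the 9 genes were below 0, from -1.06 ± 0.56 for Lcn2 (limma adjusted p = 0.592) to -0.09 ± 0.21 for Lyz1 (adjusted p = 0.904). Their median was -0.58, beside 0.02 over all tested genes, and the share of all genes below 0 was not counted. Saa3 had -0.86 ± 0.40 (adjusted p = 0.572), Slpi -0.59 ± 0.20 and S100a8 -0.68 ± 0.23 (both adjusted p = 0.541). For nicotine by genotype the largest estimate was that of Lcn2, 1.90 ± 0.56 (adjusted p = 0.740). A smaller response in the knockout was therefore not established by these tests.

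**Figure D5:**
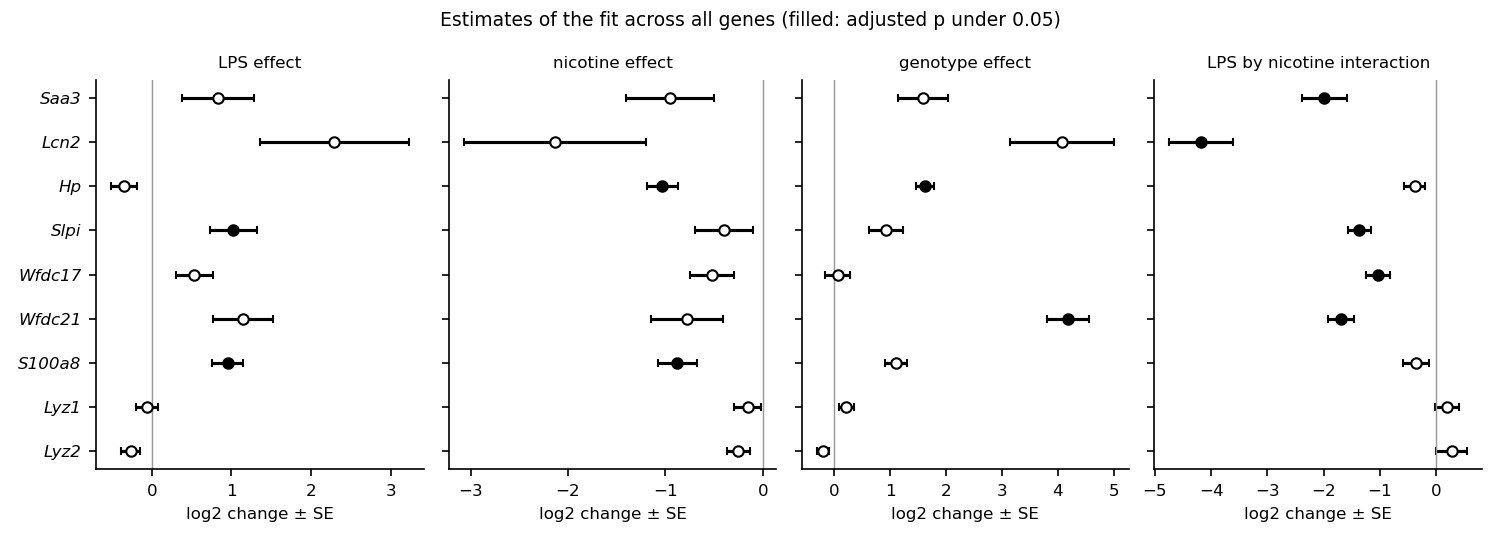
Estimated log2 change with its SE (horizontal axis) for 9 genes (vertical axis) in 4 comparisons over the 8 libraries, filled where the limma adjusted p was under 0.05. Filled points number 2 for LPS, 2 for nicotine, 2 for genotype and 5 for the LPS by nicotine interaction.

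Markers of other myeloid cells moved with genotype in part. Ly6c2, a marker of monocytes, stood at 1.97 to 13.4 FPKM in the wild type libraries and 33.9 to 184 FPKM in the knockout libraries (log2 change 3.86 ± 0.33, limma adjusted p = 0.00686). F13a1, of the same list, went the other way, at 16.5 to 42.8 FPKM in wild type and 4.02 to 8.59 FPKM in the knockout. Ccr2 overlapped, at 1.00 to 17.8 FPKM in wild type and 0.892 to 11.9 FPKM in the knockout. The 6 monocyte markers summed to 127 to 346 FPKM in wild type and 156 to 597 FPKM in the knockout, with 1 called higher and 1 lower. Gata6, the transcription factor of resident peritoneal macrophages, was lower in the knockout (-1.24 ± 0.20, adjusted p = 0.0458). It was the 1 of 10 macrophage markers called lower, and 0 were called higher (median log2 change 0.07). Timd4 of the same list was not called, at 20.3 to 108 FPKM in wild type and 78.3 to 222 FPKM in the knockout. Of 12 neutrophil markers 7 were under 1 FPKM in every library, Elane and Mpo among them. The list summed to 48.2 to 137 FPKM in wild type and 28.4 to 108 FPKM in the knockout, most of it Csf3r. Camp, on the same list, stood at 0 to 5.51 FPKM in wild type and 1.72 to 11.6 FPKM in the knockout. For genotype 0 of the 4 neutrophil markers tested were called (median log2 change -0.36). The 7 mesothelial markers were each under 1 FPKM in all libraries. The part of monocyte RNA in the genotype difference was not tested.

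Genes that could act on this set were read from lists chosen by function. Each count below is read beside the shares of all tested genes called, which were 15.8% higher and 11.3% lower with LPS, 24.1% and 22.2% with nicotine, 0.689% and 0.412% with genotype, and 12.8% and 18.0% for the LPS by nicotine interaction. The interaction counts fell to 0, over these lists and over all genes, with no filter on low values. Of 24 tested upstream regulators, 15 rose and 2 fell with LPS (median log2 change 1.39, beside 0.02 over all genes). The cytokine genes Il6 (log2 change 9.06 ± 1.05, limma adjusted p = 0.00324) and Il1b (7.88 ± 1.06, adjusted p = 0.00493) had the largest rises. Cebpa (-2.12 ± 0.39, adjusted p = 0.0132), a C/EBP factor of myeloid differentiation, and the interleukin 6 receptor gene Il6ra (-1.83 ± 0.35, adjusted p = 0.0146) fell. With nicotine 6 rose and 6 fell, about the shares of all genes, with Ddit3 (2.87 ± 0.19, adjusted p = 0.00041) and Atf4 (2.75 ± 0.23, adjusted p = 0.000479), factors of the integrated stress response, highest. Il1b fell most (-4.09 ± 1.06, adjusted p = 0.0190). The LPS response after nicotine was smaller for 12 of the 24 and larger for 4. For genotype their median log2 change was -0.07, beside -0.01 over all genes.

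Of 11 tested acute phase genes other than those above, 6 rose and none fell with LPS. Ptx3, a soluble pattern recognition protein (3.95 ± 0.61, adjusted p = 0.00773), and Mt2, a metallothionein that binds zinc (3.07 ± 0.78, adjusted p = 0.0308), rose most. Both were among the 5 of 11 with a smaller LPS response after nicotine (Ptx3 -2.79 ± 0.23 and Mt2 -3.94 ± 0.25, limma adjusted p = 0.0143 for both). With nicotine 1 rose (Orm1, an acute phase glycoprotein, 1.41 ± 0.26, adjusted p = 0.00549) and 3 fell, led by Serpina3g (-2.07 ± 0.31, adjusted p = 0.00271). With genotype none was called higher and 1 was called lower (Trf, transferrin, -1.03 ± 0.17, adjusted p = 0.0462), yet the median log2 change of the 11 was 0.99, beside -0.01 over all genes. Cp, the copper protein ceruloplasmin (2.23 ± 0.39, adjusted p = 0.0580), Serpina3g (1.62 ± 0.31, adjusted p = 0.0865), Serpina3f (1.99 ± 0.60, adjusted p = 0.237) and Saa1 (1.01 ± 0.27, adjusted p = 0.188) had estimates above 0 that did not pass. With the block of matched pairs 4 of the 11 were called higher and 2 lower, and the 1 call lower ended without any 1 library other than that of the wild type with LPS. The remaining 17 of the 28 listed acute phase genes were under the minimum, Saa2 among them.

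Among 14 tested WAP domain genes and protease inhibitors, 3 rose and 2 fell with LPS, near the shares of all genes. Serpinb2 (4.18 ± 0.75, adjusted p = 0.0129) and Timp1, an inhibitor of metalloproteinases (3.15 ± 0.95, adjusted p = 0.0499), rose most, and Timp2 (-1.10 ± 0.26, adjusted p = 0.0263) and Spint1 (-0.85 ± 0.19, adjusted p = 0.0221) fell. The LPS response after nicotine was smaller for 6 of the 14 and larger for 1. Cst7, a cystatin that inhibits cysteine proteases, was the 1 gene of this list higher in the knockout (3.04 ± 0.38, adjusted p = 0.0206), and none was lower. Nicotine raised 1, Cstb (0.95 ± 0.25, adjusted p = 0.0189), and lowered 1, Serpinb1a (-1.25 ± 0.37, adjusted p = 0.0304).

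On the list of other S100 genes, which also held S100pbp (S100P-binding protein), 7 were tested. Of these, 1 was lower with LPS (S100a1, -0.51 ± 0.14, limma adjusted p = 0.0401) and 1 was lower with nicotine (S100a11, -0.59 ± 0.19, adjusted p = 0.0376). None was called for genotype. S100a11 stood at 195, 164, 410 and 223 FPKM in wild type with vehicle, nicotine, LPS and both, and at 490, 401, 762 and 393 FPKM in the knockout. Its genotype estimate of 1.08 ± 0.19, close in size to that of S100a8, did not pass (adjusted p = 0.0570). S100a10 stood at 345 FPKM in the wild type LPS library and at 104 to 165 FPKM in the other 7, and did not pass for LPS (0.57 ± 0.26, adjusted p = 0.130). Of 8 other secreted antimicrobial genes tested, Adm (adrenomedullin) rose with LPS (2.22 ± 0.58, adjusted p = 0.0329), Hist1h2bc rose with nicotine (0.72 ± 0.25, adjusted p = 0.0496) and the ribonuclease gene Ear2 was lower in the knockout (-2.88 ± 0.14, adjusted p = 0.00252). Of 14 receptors and partners, 3 rose and 3 fell with LPS. Fpr2, a formyl peptide receptor that also binds serum amyloid A, rose with LPS (2.50 ± 0.65, adjusted p = 0.0327) and fell with nicotine (-1.90 ± 0.65, adjusted p = 0.0491). Tlr2, also a receptor for serum amyloid A, rose with LPS (1.74 ± 0.29, adjusted p = 0.0097), and Tlr4, the LPS receptor, fell with nicotine (-1.13 ± 0.26, adjusted p = 0.0119). The scavenger receptors Scarb1 (-1.15 ± 0.19, adjusted p = 0.0101) and Lrp1 (-1.13 ± 0.30, adjusted p = 0.0348) fell with LPS. Nicotine raised 1 and lowered 4 of these 14. Mmp9, whose protein binds lipocalin 2, was higher in the knockout (2.13 ± 0.24, adjusted p = 0.0172), and Cd36 was lower there (-0.97 ± 0.13, adjusted p = 0.0245) and higher with nicotine (0.80 ± 0.13, adjusted p = 0.00319).

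Profiles over the 8 libraries were compared by the mean absolute gap between log2(FPKM + 1) values after each gene was centred on its own mean. Among the 9 genes themselves the closest pairs were Lyz1 with Lyz2 (mean gap 0.21, with shared reads) and Slpi with S100a8 (0.29), and Lcn2 lay nearest to Wfdc21 (0.94). Wfdc17 and Wfdc21, although neighbours, were 2.06 apart. The search was then widened to the tested genes, leaving out predicted genes, genes named after clones and small RNAs. There Saa3 was closest to Pilrb2 (0.20), Prdx5 (0.22), Bst1 (0.22) and Pilrb1 (0.23), and Slpi to Il2rg (0.14), H2-Q9 (0.14), Sec23b (0.18) and Ccl9 (0.18). Lcn2 was closest to Fpr2 (0.77), Mmp14 (0.77), Tarm1 (0.88) and Wfdc21. S100a8 was closest to Cacnb3, Fpr3, Psmd10 and Ebi3 (0.18 to 0.21), and Lyz2 to Tmem176b, Rnf113a2, Gpx7 and Zfp629 (0.08 to 0.09). A gene that hardly varies has small gaps to every other such gene, so the gaps of Lyz2 and Lcn2 are not on an equal footing.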

How the data were processed

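For the 8 groups of macrophages, with 1 library each, the authors deposited 1 table of FPKM values per gene. Poly(A) RNA was sequenced on Illumina libraries, per the labels' protocols. The submitters' processing notes name mm10 as the build and Cuffdiff, Cufflinks, HISAT2 and CASAVA 1.8 as tools, without their role. The annotation and any scaling between libraries: not given in the sources used here. Where a symbol occurred more than once (2 of 24341 lines), the line of higher mean was used. Groups came from the sample titles.

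Since FPKM is a normalised unit, tests used a log scale. The 10447 genes whose mean reached 1 FPKM were fitted on log2(FPKM + 1) with limma 3.58.1 in R 4.3.3, with a trend and Benjamini-Hochberg adjustment over all of them at 0.05. The additive model (LPS, nicotine, genotype) has 4 residual degrees of freedom, and its spread is the departure from additivity. The interaction model adds 3 pairwise interactions and has 1. The code of the fits was run on data simulated from the fitted models themselves, which cannot show that those models suit these libraries. Single pairs were compared without a test, at 2-fold on FPKM + 1 with at least 5 FPKM in either library. A ratio against a library listed at 0 is not printed.

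The members and the 6 pathway and 9 marker lists were chosen with earlier results of these data known. The rule for named genes took all 10 members, up to 2 rises and 2 falls per pathway list and effect of the additive model, and the 4 nearest profiles of 5 members. Interaction values are given for list genes named by that rule. Some results of the rule are left out. Alternatives were pseudocounts of 0.1 and 5, other filters, 4 scalings, no trend, fewer terms, a block of matched pairs and leaving out each library. Positions came from GENCODE M21 on GRCm38. Other steps used Python 3.11.15 with pandas 2.3.3, NumPy 2.4.6 and Matplotlib 3.10.9.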

Additional observations from a re-analysis of the deposited data

Results flagged for a closer look

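The LPS response differed between cells with and without nicotine for 5 of the 9 tested genes, by the test of the difference itself (limma, LPS by nicotine interaction over 8 libraries), beside 18.0% of all tested genes with a smaller and 12.8% with a larger response. The difference of the log2 LPS effects was -1.99 for Saa3, -4.18 for Lcn2, -1.36 for Slpi, -1.03 for Wfdc17 and -1.69 for Wfdc21, with adjusted p of 0.0318, 0.0186, 0.0203, 0.0316 and 0.0183. For all 5 the LPS ratio was smaller after nicotine in both genotypes. All 5 calls ended with no filter on low values, where 0 of all genes were called, and 3 of the 5 remained with equal FPKM totals and 2 with quantile scaling. For Lcn2 and Wfdc21 the wild type part rests on libraries listed at or near 0.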

How the results depend on the processing

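Of the values of single genes under the alternatives, 727 kept direction and side of the threshold, 58 lost and 28 gained a call, and 24 turned. The number of genes higher with LPS (2) became 1 with no filter, without the trend and with matched pairs as a block, 0 with equal FPKM totals (over all or over the other genes), quantile scaling and LPS as the only term, and 0 to 3 without 1 library. The number lower with LPS (0) became 3 with both equal-total scalings, 2 with quantile scaling and 0 to 1 without 1 library. Lower with nicotine (2) became 3 with equal totals over the other genes, 0 with nicotine as the only term and 2 to 4 without 1 library. Higher in the knockout (2) became 1 with genotype as the only term, 6 with the block and 0 to 5 without 1 library. For the LPS by nicotine interaction, 5 lower became 0 with no filter, 3 with both equal-total scalings and 2 with quantile scaling, and 0 higher became 2, 2 and 1. Its fit allows no library to be left out, so a model with this interaction alone, chosen after seeing the data, was used, which gave 0 to 5 lower. Of pair ratios, 9 higher with LPS became 4, 4 and 3 with equal totals, equal totals over the other genes and quantile scaling, and 0 lower became 6, 6 and 4. The 11 lower with nicotine became 6 and 7 with both equal-total scalings, and the 19 higher in the knockout became 12 with 5 FPKM required in both libraries, a rule chosen after seeing the data. Equal totals changed the genes called over the whole table for LPS from 1648 higher and 1176 lower to 853 and 4382. The genotype calls, 72 higher and 43 lower, became 497 and 301 with the block, 34 and 21 with no filter, and 11 and 8 with genotype as the only term. The log2 values that turned were, with equal totals, over the other genes and with quantile scaling in that order, LPS Wfdc17 -0.0815, -0.12 and -0.52, and LPS by nicotine Hp 0.28, 0.28 and 0.41 and S100a8 0.29, 0.30 and 0.36. With quantile scaling alone these were LPS Slpi -0.0426, nicotine Lyz2 0.0929, LPS by nicotine Slpi 0.0941 and LPS by genotype Lyz2 0.38. With a pseudocount of 5, LPS by genotype Wfdc21 became 0.26, and nicotine by genotype Wfdc21 -0.12 and S100a8 -0.0045. Without 1 library, LPS Lyz1 ranged from -0.185 to 0.0331, genotype Wfdc17 from -0.131 to 0.243, and LPS by nicotine Lyz1 was lowest, at -0.0527, without the wild type nicotine and LPS library. The cause of these changes was not tested. No paired analysis by replicate number was possible because each group has 1 library and the labels carry no replicate numbers. The lack of counts limits what can be said of values under 1 FPKM.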
